A study of Mus musculus with 10 samples.

Results

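10 genes of prostaglandin synthesis and response were followed across sorted cells of the adult mouse lung mesenchyme: the cyclooxygenases Ptgs1 and Ptgs2, the synthases Ptges and Ptgis, the prostanoid receptors Ptger2, Ptger3, Ptger4, Ptgir and Ptgfr, and the lipoxygenase Alox12. They were taken by symbol from the Ensembl identifiers of the deposited tables. All 10 were found among 14854 genes, and all 10 passed the filter on low values that left 14177 genes for testing.

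RNA was sequenced from cells sorted by FACS into 5 lineages, with 2 libraries each. The Axin2:Pdgfra, Axin2, Pdgfra and Negative groups came from adult mice of the genotype Axin2CreERT2:tdT:PdgfraEGFP and carried both labels, the Axin2 label, the Pdgfra label or neither. Pdgfra library 1 is titled for EGFP, not Pdgfra, and was placed in the Pdgfra group because its genotype and GFP lineage are those given for Pdgfra library 2; all Pdgfra group values and the Pdgfra label comparison use it. The Wnt2 group came from adult mice of another genotype, Wnt2CreERT2:R26REFYP, so lineage and mouse line cannot be told apart for it. CreERT2 is a tamoxifen-inducible recombinase: the Axin2 and Wnt2 labels mark cells in which the driver gene was active at induction and their descendants, whereas EGFP follows Pdgfra itself. The labels give no dose or time of tamoxifen, nor whether the paired libraries derive from different mice, so the p-values cover the spread between libraries alone, and that spread could be technical.

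Cyclooxygenases turn arachidonic acid, released from membranes by phospholipases, into an unstable intermediate, which terminal synthases convert to prostaglandin E, prostacyclin and the other prostanoids. These act close to where they are made, through G protein-coupled receptors that raise cyclic AMP (Ptger2, Ptger4, Ptgir), lower it (Ptger3) or release calcium (Ptgfr). In the lung, prostaglandin E and prostacyclin are known to restrain fibroblast proliferation and matrix synthesis and to relax smooth muscle, and the prostaglandin F receptor has been tied to fibrosis.

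The values are log2 levels that share a common distribution across libraries, and they are compared here between groups for a given gene, not between genes. Every library has a bottom value held by many genes at once, from 310 in Pdgfra library 2 (2.09%) to 2228 in Axin2:Pdgfra library 2 (15%) and 2728 in Negative library 2 (18.4%). A gene with that number is called at the lowest value. The sort labels were checked on their own transcripts. Pdgfra stood at 14.64 to 15.21 in the 4 libraries with the Pdgfra label and no higher than 13.49 in the 4 without it, and at 16.05 and 16.25 in Wnt2. Axin2 (9.54 to 12.04) and Wnt2 (7.68 to 10.82) transcripts overlapped between the groups with and without their label. Negative library 2 and Wnt2 library 2 had Xist at 8.57 and 7.81, against 16.68 or more in the other 8 libraries, and the Y-linked Ddx3y at 10.74 and 11.48. Wnt2 library 1 had both transcripts, Xist at 17.04 and Ddx3y at 8.15. The Negative libraries also held erythroid transcripts, with a summed level of 16.50 and 16.02 against 6.95 to 11.31 elsewhere. Their summed level of epithelial markers was the highest too, 17.67 and 17.81 against 14.52 to 17.13 elsewhere. Negative library 2 had the highest summed endothelial level, 17.18, and the highest macrophage and leukocyte level, 15.67.

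An F-test in limma across the 5 lineages passed an adjusted p of 0.05 for 5 of the 10 genes, where 8.2% of all genes tested passed: Ptgis, Ptgs2, Alox12, Ptger2 and Ptgfr. With a variance prior without trend and robust none of the 5 passed, and 205 of all genes did. Without either Pdgfra library, or without Wnt2 library 2, Ptgis alone passed, while without Negative library 2 the count was 5. With the Pdgfra label, 9 of the 10 were higher by value and 2 of them, Ptgis and Ptger2, passed, where 6.48% of all genes passed, 3.55% as higher and 2.93% as lower. The median difference of the 10 was 1.84 on the log2 scale, and that of all genes tested was 0.0047. Over the 10 pairs of lineages, 10 of the 100 gene and pair combinations passed, or 10%, beside 2.57% of such combinations over all genes. The 10 genes were chosen with earlier results of these data known, so set beside all genes these figures are a description. No gene of the 10 passed with the Axin2 label, where 1.64% of all genes did, or 232, a count that was 4 without Pdgfra library 1 and 680 without Negative library 0. None passed between Wnt2 and the mean of the other 4 groups, where 2.16% did. In these limma comparisons 3 and 2 of the 10 genes, respectively, had an unadjusted p under 0.05, near the share over all genes (17.5% and 14.4%). The levels of all 10 genes are plotted by library.

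**Figure D1:**
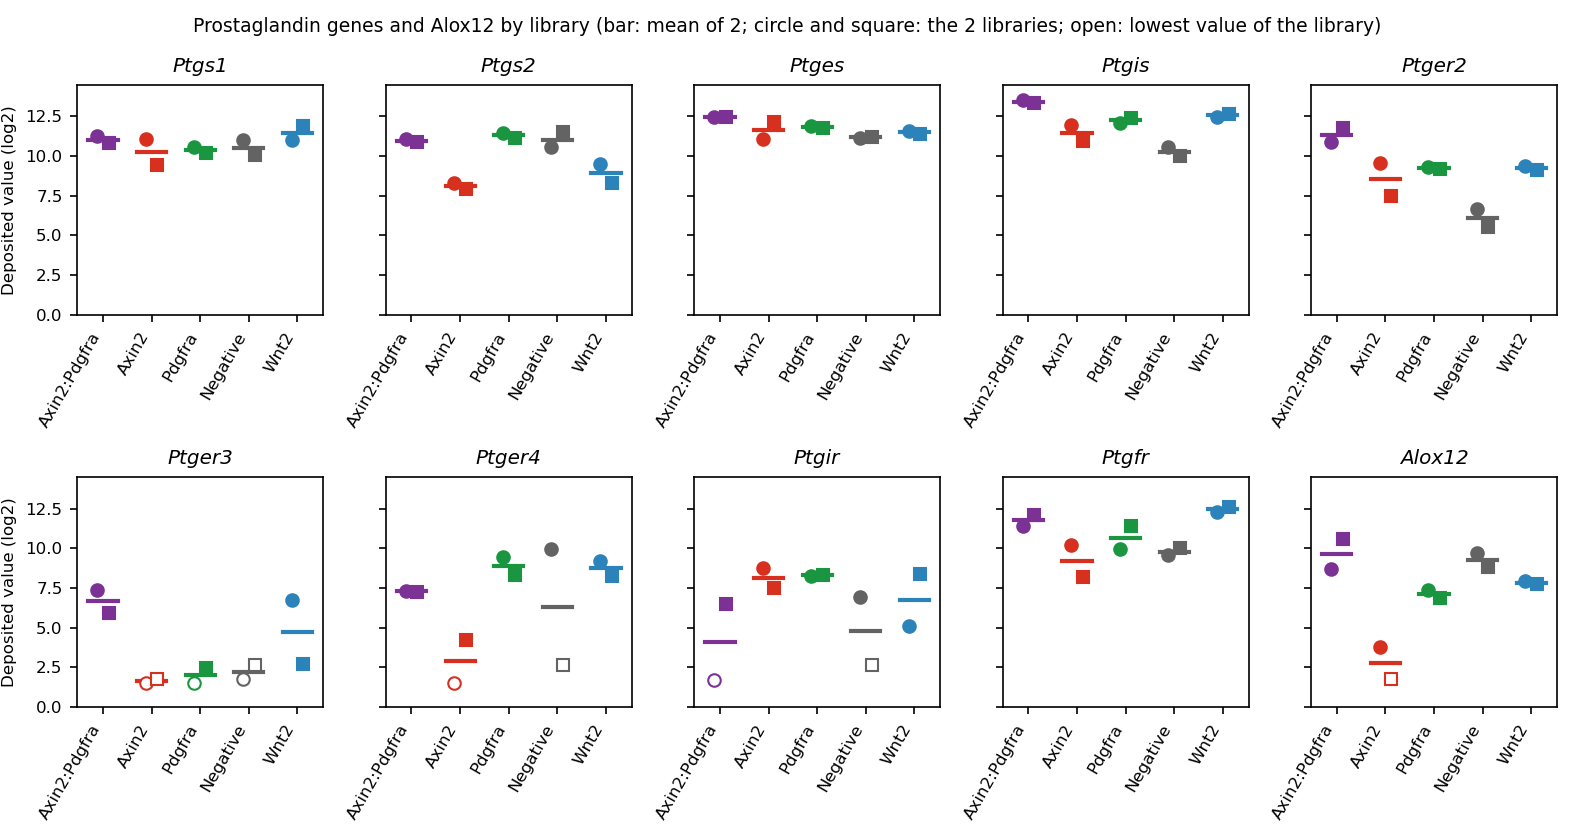
Deposited log2 value of each of the 10 genes (vertical axis) in the 5 lineages (horizontal axis). The circle is the library numbered 1 (0 in the Negative group), the square is library 2, the bar is their mean, and open symbols are values at the lowest level of the library. Ptgis is highest in Axin2:Pdgfra and lowest in Negative, Ptgs2 is low in Axin2 and Wnt2, and the 2 libraries of a group lie far apart for Ptger4 in Negative and for Ptgir in Axin2:Pdgfra.

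Of the cyclooxygenases, Ptgs2 passed the F-test and Ptgs1 did not, and the difference between them was not tested. Ptgs2, the inducible cyclooxygenase, stood at 11.06 and 10.89 in the Axin2:Pdgfra libraries, 11.47 and 11.15 in Pdgfra, and 10.56 and 11.51 in Negative. It stood at 8.29 and 7.91 in Axin2 and at 9.48 and 8.33 in Wnt2. All 6 libraries of the first 3 groups thus lay above all 4 of the Axin2 and Wnt2 groups, with no overlap. The F-test gave Ptgs2 an adjusted p of 0.0204 in limma. Ptgs2 was lower in Axin2 than in Pdgfra cells, with a log2 difference of -3.21 ± 0.70 (SE, limma adjusted p = 0.0291, where 2.26% of all genes passed). Axin2:Pdgfra cells exceeded Axin2 cells by 2.88 ± 0.70 (adjusted p = 0.0471, where 2.3% passed). Cells with the Axin2 label thus fell on both sides, high with the Pdgfra label and low without it. The limma test of whether the 2 labels combine additively did not pass for Ptgs2, with an interaction of 2.60 ± 0.99 (adjusted p = 0.472). The difference between Axin2 and Negative cells was -2.94 ± 0.70, with an adjusted p of 0.0746 in limma. The F-test call for Ptgs2 was lost without any library of the Axin2 or Pdgfra groups or without Wnt2 library 2 (adjusted p up to 0.0776), and it held without each of the other 5. Of the pairwise calls, that of Axin2 against Pdgfra held in 5 of 10 fits with a library left out. That of Axin2:Pdgfra against Axin2 held in 2, those without a Negative library, and was lost when libraries were centred on their medians (adjusted p = 0.0613).

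Ptgs1, the constitutive cyclooxygenase, did not pass any comparison. Its values were 11.26 and 10.79 in Axin2:Pdgfra, 11.07 and 9.46 in Axin2, 10.59 and 10.19 in Pdgfra, 11.002 and 10.06 in Negative, and 11.01 and 11.92 in Wnt2. All groups overlapped with at least 1 other, and the difference between the Axin2 libraries was larger than any difference between group means. With the Pdgfra label the difference was 0.31, with a 95% interval from -0.70 to 1.32, so larger changes than the estimate lie within its error. Across the 10 libraries the Pearson correlation of Ptgs1 with Ptgs2 was -0.13, a description over libraries that come in pairs.

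The sequence before each cyclooxygenase's transcription start is shown because Ptgs2 passed the F-test across lineages and Ptgs1 did not. It comes from the RefSeq promoter table of GRCm38.p6, a later build than the mm9 of the files, and 9 of the 10 genes have an entry there. Capitals mark matches to 9 motifs searched on both strands from 250 bases before to 50 after each start: the TATA box (TATAAA), the cyclic AMP response element (TGACGTCA) and its TGACG core, the AP-1 site (TGANTCA), an NF-kB site (GGANTTTCC), the E-box (CACGTG), the GC box (GGGCGG), a C/EBP site (TTGCNNAA) and a GAS site (TTCNNNGAA). The 250 bases before the starts lie at chr1:150099781-150100030 (plus strand) for Ptgs2 and chr2:36230176-36230425 (plus strand) for Ptgs1, and a short stretch past the Ptgs2 start at chr1:150100037-150100059 is added:
Ptgs2, before the start: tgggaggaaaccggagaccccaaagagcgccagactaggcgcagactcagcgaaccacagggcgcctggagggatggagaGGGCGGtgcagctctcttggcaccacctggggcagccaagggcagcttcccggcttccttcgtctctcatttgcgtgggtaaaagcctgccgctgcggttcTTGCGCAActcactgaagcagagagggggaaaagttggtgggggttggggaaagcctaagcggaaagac
Ptgs2, after the start: accactaCGTCACGTGgagtccg
Ptgs1, before the start: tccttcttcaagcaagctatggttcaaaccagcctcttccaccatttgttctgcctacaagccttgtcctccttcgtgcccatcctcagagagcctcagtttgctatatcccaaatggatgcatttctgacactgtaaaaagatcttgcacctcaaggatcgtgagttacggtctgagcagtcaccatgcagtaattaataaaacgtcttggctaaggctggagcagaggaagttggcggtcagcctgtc

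Positions are counted from the first start listed for each gene in the RefSeq source, and any other start of these genes was not searched. The Ptgs2 window held a GC box at position -170 and a C/EBP match at -69. It also held a TGACG core on the opposite strand at 14 and an overlapping E-box at 17. The Ptgs1 window held none of the 9. Among 32851 promoters of the same length, 35.7% hold the GC box, 10.8% the C/EBP match, 20.8% the TGACG core and 7.15% the E-box. The GC box was in the windows of 7 of the 9 genes and the C/EBP match in 2, Ptgs2 and Ptger2. Matches are letters in a window and were not tested as sites.

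Ptgs2 is itself an early response gene, and genes of that kind moved with the Pdgfra label. Ptgs2 was not called with it (1.57 ± 0.49, limma adjusted p = 0.0768), and its libraries with and without the label overlapped. Of 21 dissociation and immediate early genes, 12 were higher with the label in limma, where 3.55% of all genes were, and none was lower, where 2.93% were. The list's median difference was 1.25. Egr1, an early growth response factor, was higher by 1.25 ± 0.14 (adjusted p = 9.3e-05), and Nr4a1, an orphan nuclear receptor, by 1.82 ± 0.20 (adjusted p = 0.000101). The summed level of the list was 18.87 to 19.02 in the 4 libraries with the Pdgfra label, 17.67 to 17.89 in the 4 without it, and 18.13 and 18.39 in Wnt2. Over the 10 libraries the correlation with that level was 0.51 for Ptgs2, 0.76 for Ptgis, 0.73 for Ptger2 and 0.70 for Ptges, given as a description. With the summed levels of the cell markers, that of Ptgs2 ran from -0.28 (pericyte and smooth muscle) to 0.59 (macrophage and leukocyte). It was 0.57 with the erythroid and 0.48 with the epithelial level. Without the label, the Negative libraries had Ptgs2 at 10.56 and 11.51 with immediate early levels of 17.67 and 17.89. The Axin2 libraries had Ptgs2 at 8.29 and 7.91 with immediate early levels of 17.89 and 17.88. Ptgis and Ptger2, the 2 genes called with the Pdgfra label, were higher in the same libraries as the immediate early list. Their correlations with it are thus no result apart from that call. The part of sorting and dissociation in the values of Ptgs2, Ptgis and Ptger2 was not tested.

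Among the terminal synthases, Ptgis, which makes prostacyclin, had the smallest adjusted p of the 10 genes (0.00376, F-test in limma). It stood at 13.53 and 13.33 in Axin2:Pdgfra, 12.48 and 12.65 in Wnt2, 12.10 and 12.41 in Pdgfra, 11.94 and 10.98 in Axin2, and 10.56 and 9.99 in Negative. The 4 libraries with the Pdgfra label lay above the 4 without it, and both Axin2 libraries lay above both Negative ones. With the Pdgfra label Ptgis was higher by 1.98 ± 0.31 (SE, limma adjusted p = 0.00163, 95% interval 1.30 to 2.65). That call held without each library in turn, with differences from 1.74 to 2.22. With a variance prior that had no trend and was not robust, its adjusted p was 0.051. With the Axin2 label the difference was 1.18 ± 0.31 (adjusted p = 0.0712), and it passed only without Negative library 0.

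In the order of Ptgis levels, Axin2:Pdgfra exceeded Negative by 3.15 ± 0.44 (limma adjusted p = 0.000755, where 6.72% of all genes passed). It exceeded Axin2 by 1.97 ± 0.44 (adjusted p = 0.0337). Pdgfra exceeded Negative by 1.98 ± 0.44 (adjusted p = 0.0296, where 2.91% passed), and Wnt2 exceeded Negative by 2.29 ± 0.44 (adjusted p = 0.00773, where 5.81% passed). None of the 4 steps between neighbours in that order passed: Axin2:Pdgfra to Wnt2, Wnt2 to Pdgfra, Pdgfra to Axin2 and Axin2 to Negative. The difference that went with the Pdgfra label was of like size with and without the Axin2 label, 1.97 and 1.98. With a library left out, the call against Negative held in 10 of 10 fits for Axin2:Pdgfra, 8 for Wnt2 and 5 for Pdgfra, and the call of Axin2:Pdgfra against Axin2 in 2, those without a Negative library. That last call was also lost when libraries were centred on their medians (1.89, adjusted p = 0.0650).

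Ptges, which makes prostaglandin E, varied least of the 10, by 1.39 log2 units from the lowest to the highest library. It stood at 12.44 and 12.47 in Axin2:Pdgfra, 11.08 and 12.13 in Axin2, 11.91 and 11.75 in Pdgfra, 11.13 and 11.21 in Negative, and 11.58 and 11.40 in Wnt2. The Axin2:Pdgfra libraries were above all others and the Axin2 pair spanned most of the range. With the Pdgfra label its difference was 0.75 ± 0.32 (limma adjusted p = 0.204), and the F-test did not pass (adjusted p = 0.326).

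Ptgis moved with the fibroblast genes of the sort. Of 12 fibroblast markers, 10 were higher with the Pdgfra label, where 3.55% of all genes were, and none was lower, among them Col1a1 by 1.61 ± 0.23 (limma adjusted p = 0.000857) and Dcn by 3.20 ± 0.38 (adjusted p = 0.000177). The list's summed level was 17.67 to 18.50 with the label, 15.71 to 17.11 without it and 17.96 to 18.16 in Wnt2. The list includes Pdgfra itself, the gene behind the sort label, so the sort set part of this level. In Wnt2 the markers were split: Dcn, Pi16 and Col14a1 averaged 9.21, 3.80 and 8.85, below Negative at 11.06, 7.955 and 9.70. The other markers averaged higher in Wnt2 than in Negative, as Ptgis did. Lum was at the lowest value in Negative library 2, and no other fibroblast marker was at a lowest value anywhere. Ptgis correlated with that level at 0.93 and with the endothelial level at -0.78 over the 10 libraries, given as a description. In sorted bulk RNA, a larger share of cells with a transcript and more of it per cell cannot be told apart, and the part of cell composition in the Ptgis difference was not tested.

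**Figure D2:**
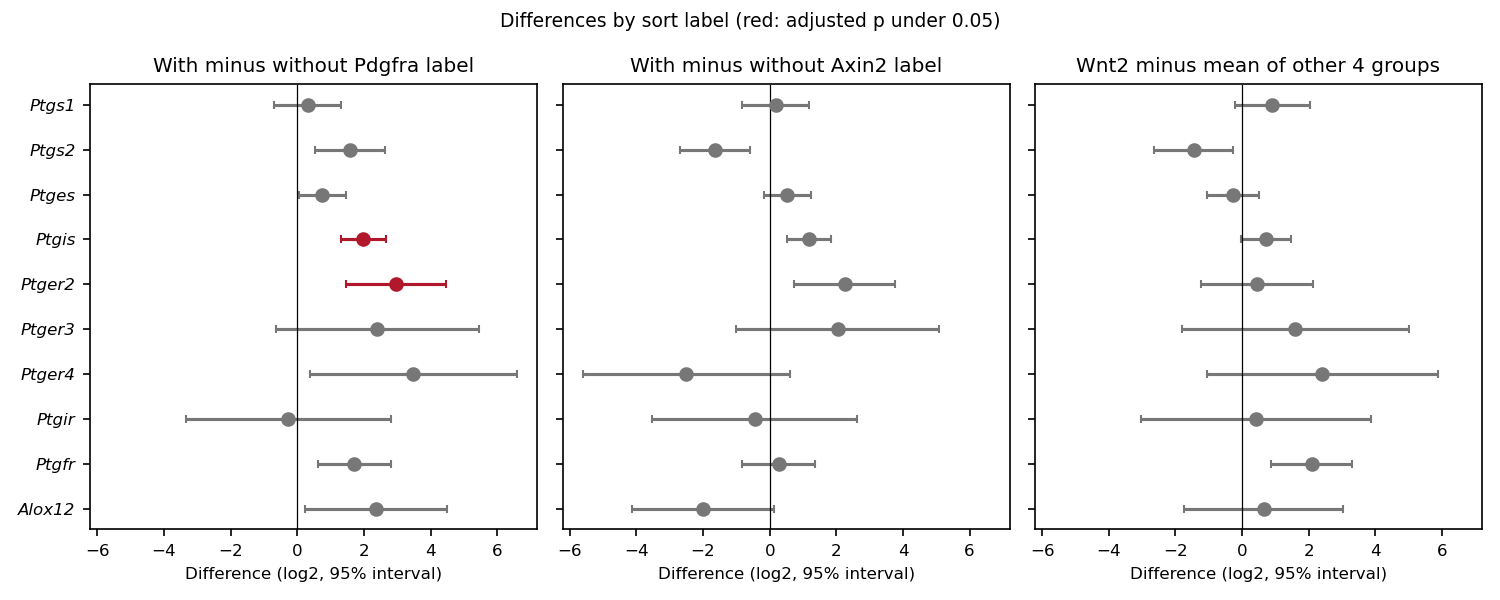
Difference in log2 level for each of the 10 genes (vertical axis), as libraries with minus without the Pdgfra label, with minus without the Axin2 label, and Wnt2 against the average of the remaining groups. Points are limma estimates, bars are 95% intervals, and red marks an adjusted p under 0.05, which only Ptgis (1.98) and Ptger2 (2.95) reach, in the left panel.

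Among the receptors that raise cyclic AMP, Ptger2 followed Ptgis. It stood at 10.91 and 11.73 in Axin2:Pdgfra, 9.37 and 9.14 in Wnt2, 9.29 and 9.19 in Pdgfra, 9.56 and 7.51 in Axin2, and 6.68 and 5.55 in Negative. The Axin2:Pdgfra pair was above every other library and the Negative pair below, and the Axin2 pair straddled the Pdgfra and Wnt2 values. With the Pdgfra label Ptger2 was higher by 2.95 ± 0.70 (SE, limma adjusted p = 0.0210), although the 2 sets of libraries overlapped. Axin2:Pdgfra exceeded Negative by 5.20 ± 0.99 (adjusted p = 0.00596). The value of 5.55 in Negative library 2 is the smallest above that library's lowest value, so the size of this difference rests in part on a value next to the bottom of that library.

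The label difference of Ptger2 was not called without Axin2:Pdgfra library 2, Axin2 library 2 or either Pdgfra library, where its adjusted p was 0.0671 to 0.0902. The difference between Axin2:Pdgfra and Negative held in 9 of 10 fits with a library left out. It lost its call without Axin2:Pdgfra library 2 (adjusted p = 0.0628) and without both that library and Negative library 2 (adjusted p = 0.0948). The Pearson correlation of Ptger2 with Ptgis over the 10 libraries was 0.96, and with the fibroblast list 0.86. Ptgis was the second closest of all genes tested to Ptger2, after Gsn, which encodes the actin-severing protein gelsolin.

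Ptger4, the other prostaglandin E receptor that raises cyclic AMP, had a different order. It stood at 7.32 and 7.25 in Axin2:Pdgfra, 9.44 and 8.34 in Pdgfra, 9.22 and 8.28 in Wnt2, 4.26 and the lowest value in Axin2, and 9.94 and the lowest value in Negative. The Axin2 pair lay below all 6 libraries of the Axin2:Pdgfra, Pdgfra and Wnt2 groups, while the Negative libraries held both its highest level and a lowest value. The F-test did not pass (limma adjusted p = 0.237), and it passed without Negative library 0 (0.0449) or without Negative library 2 (0.0436). The difference with the Pdgfra label, 3.48 ± 1.45 (adjusted p = 0.188), was 5.30 with an adjusted p of 0.0206 without Negative library 0.

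Ptgir, the prostacyclin receptor, had another order than its synthase. It stood at 6.47 and the lowest value in Axin2:Pdgfra, 8.75 and 7.48 in Axin2, 8.29 and 8.32 in Pdgfra, 6.96 and the lowest value in Negative, and 5.08 and 8.41 in Wnt2. The Axin2:Pdgfra pair, where Ptgis was highest, had Ptgir below both Axin2 and both Pdgfra libraries. The F-test gave an adjusted p of 0.407 in limma, and the interval of the difference with the Pdgfra label ran from -3.35 to 2.81.

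Ptger3, the prostaglandin E receptor that lowers cyclic AMP, was at or near the bottom of most libraries. It was listed at the lowest value in 5 libraries, both Axin2, both Negative and Pdgfra library 1. It stood at 7.39 and 5.93 in Axin2:Pdgfra, 2.45 in Pdgfra library 2, and 6.77 and 2.70 in Wnt2. Only 3 libraries thus had a value above 5, and none of its comparisons passed (F-test adjusted p = 0.305 in limma).

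Ptgfr, the prostaglandin F receptor, was highest in Wnt2 cells. It stood at 12.30 and 12.58 in Wnt2, 11.42 and 12.12 in Axin2:Pdgfra, 9.94 and 11.38 in Pdgfra, 9.59 and 9.99 in Negative, and 10.23 and 8.20 in Axin2. Both Wnt2 libraries lay above the other 8, and the Axin2:Pdgfra pair lay above the remaining 6. The F-test passed with an adjusted p of 0.0386 in limma. Wnt2 exceeded Axin2 by 3.23 ± 0.72 (SE, adjusted p = 0.0205, where 4.05% of all genes passed) and Negative by 2.65 ± 0.72 (adjusted p = 0.0446). The differences of Axin2:Pdgfra (-0.67, adjusted p = 0.742) and Pdgfra (-1.78, adjusted p = 0.536) from Wnt2 did not pass. Against the mean of the other 4 groups Ptgfr was higher by 2.08 ± 0.57, with an adjusted p of 0.0782. The call against Axin2 was lost without Axin2 library 2 or either Wnt2 library (adjusted p = 0.147 to 0.224), and that against Negative held in 3 of 10 fits. The F-test calls of Ptgfr, Ptger2 and Alox12 each held in 3 of the 10 fits with a library left out.

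Markers of pericytes and smooth muscle ran opposite to Ptgfr. Of 12 such markers, 10 were lower in Wnt2 than in the mean of the other groups, where 1.44% of all genes were, and none was higher, with a difference of -3.37 ± 0.24 for Pdgfrb, the pericyte receptor for PDGF (limma adjusted p = 5.3e-06). Their summed level was 13.31 and 13.32 in Wnt2, 14.80 to 15.56 in Axin2:Pdgfra and Pdgfra, 17.27 and 16.21 in Negative, and 18.43 and 18.66 in Axin2. The correlation of Ptgfr with that level was -0.86 over the 10 libraries. The part of those cells in the Ptgfr levels was not tested.

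Alox12, the platelet-type arachidonate lipoxygenase, was lowest in Axin2 cells. It stood at 8.68 and 10.56 in Axin2:Pdgfra, 9.68 and 8.85 in Negative, 7.38 and 6.89 in Pdgfra, and 7.93 and 7.76 in Wnt2. In Axin2 it was 3.80 and the lowest value of the library, below all 8 others. The F-test gave an adjusted p of 0.0314 in limma. Axin2:Pdgfra exceeded Axin2 by 6.85 ± 1.41 (adjusted p = 0.0218), and by 6.39 when the lowest values of all libraries were raised to a common floor (adjusted p = 0.0233). The differences of Axin2 from Negative (-6.49, adjusted p = 0.0569), Wnt2 (-5.07, adjusted p = 0.0611) and Pdgfra (-4.37, adjusted p = 0.134) did not pass. The size of a difference against a library at its lowest value depends on that value. The call was lost without Axin2:Pdgfra library 2 or Axin2 library 2 (adjusted p = 0.180 and 0.160). The test of whether the labels combine additively gave Alox12 an interaction of 8.98 ± 2.0, with an unadjusted p of 0.000485 and an adjusted p of 0.271. No gene of the 14177 passed that interaction test in limma (0% called), 1296 genes (9.14%) had an unadjusted p under 0.05, and 3 of the 10 did. Without Negative library 0 the test called 42 of all genes, 1 with a positive and 41 with a negative interaction, and none of the 10.

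Platelet transcripts were checked because Alox12 is abundant in platelets. The summed level of 6 such genes was 12.37 and 13.40 in Negative, where Alox12 was at 9.68 and 8.85, and 10.30 to 11.77 elsewhere, with Itgb3 the highest of them in every library. Pf4 was at the lowest value in 4 libraries and reached 6.0 at most. Ppbp was at the lowest value in both Axin2:Pdgfra libraries and averaged 9.11 in Negative and 8.02 in Pdgfra, and Clec1b averaged 8.29 in Wnt2. In Axin2:Pdgfra library 2, with the highest Alox12 value, 4 of the 6 were at the lowest value. The correlation of Alox12 with the summed platelet level was 0.36, and the part of platelets in the Alox12 levels was not tested. Alox12 was similar to Ptgs2 across libraries, with a correlation of 0.70, and both were low in Axin2.

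By Pearson correlation of log2 values over the 10 libraries, which belong to 5 groups, the genes closest to each of the 10 were as follows, with no test. Nt5c2 (0.97) and Igfbp3 (0.97), an insulin-like growth factor binding protein, came before Ptger2 for Ptgis. Gsn (0.96) and Colq (0.96) stood beside Ptgis for Ptger2. Trmt10a (0.97), Tmem38b (0.96) and Nat8f3 (0.94) were closest to Ptgfr. Sorl1 (0.94) and Bcl10 (0.93) were among the closest to Alox12. For Ptgs2 they were Afap1l1 (0.91), Pclaf (0.91) and Crtc1 (0.88), a coactivator of CREB. For Ptgs1 they were Cul5 (0.90), Enpp4 (0.86) and Cfap36 (0.86), and for Ptges Emg1 (0.97), Dbr1 (0.94) and the phospholipase Pla2g15 (0.93). The remaining receptors were closest to Gpr63 (0.95), Tmem150c (0.94) and Gm23205 (0.91) for Ptger3, Ccp110 (0.93), Chrna7 (0.93) and 4930570N18Rik (0.93) for Ptger4, and Gys1 (0.90), Nlk (0.89) and C2cd2 (0.89) for Ptgir.

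**Figure D3:**
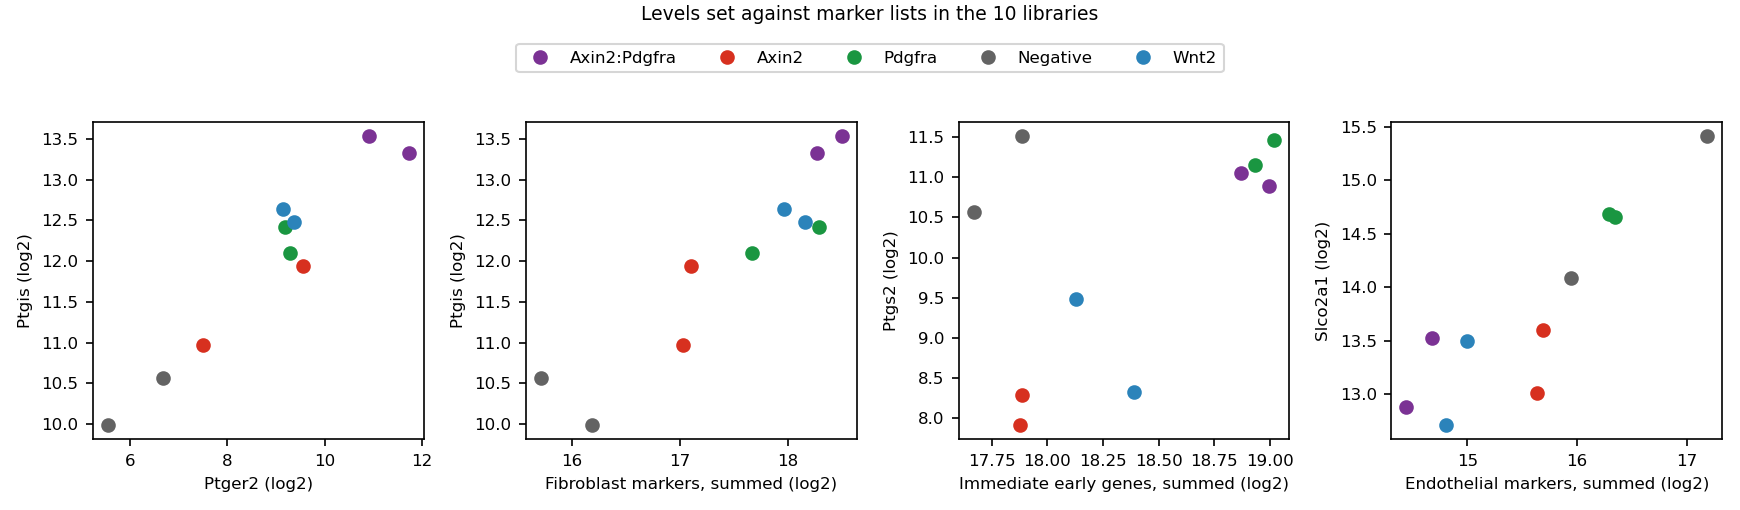
Log2 level of Ptgis against Ptger2 and against the summed level of 12 fibroblast markers, of Ptgs2 against 21 immediate early genes, and of Slco2a1 against 12 endothelial markers, with each point a library coloured by lineage. The libraries run from Negative (grey) to Axin2:Pdgfra (purple) in the Ptgis panels, while the Negative libraries have high Ptgs2 at a low level of immediate early genes.

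The rest of the pathway was read from 6 further lists. Of 7 other prostanoid synthases and 7 genes of arachidonate release in the tables, none passed the F-test, either label or the Wnt2 comparison in limma. At an unadjusted p under 0.05 in the F-test there were 2 and 1, beside 23.9% of all genes. The E synthase Ptges3 stood at 10.61 to 12.34 over the 10 libraries, and the thromboxane synthase Tbxas1 at 3.13 and 5.92 in Axin2 against 7.61 to 10.59 in the other 8. Pla2g4a, the cytosolic phospholipase that releases arachidonic acid, stood at 4.30 to 9.42 in 9 libraries and at the lowest value in Negative library 2.

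Of 5 genes of prostaglandin transport and breakdown, 3 passed the F-test, where 8.2% of all genes did: Abcc4 (limma adjusted p = 0.0132), Slco2a1 (0.0285) and Hpgd (0.0311). Hpgd, the dehydrogenase that inactivates prostaglandins, stood at 11.52 and 11.06 in Axin2:Pdgfra, 12.21 and 11.77 in Axin2, 13.88 and 13.68 in Pdgfra, 12.21 and 14.04 in Negative, and 12.52 and 12.72 in Wnt2. With the Axin2 label it was lower, with a difference of -1.82 ± 0.35 (adjusted p = 0.0225). Its libraries with and without the label met at 12.21 but did not cross. Slco2a1, which carries prostaglandins into cells for breakdown, stood at 12.88 and 13.52 in Axin2:Pdgfra, 13.60 and 13.01 in Axin2, 14.69 and 14.66 in Pdgfra, 14.08 and 15.41 in Negative, and 12.71 and 13.49 in Wnt2. It too was lower with the Axin2 label, with a difference of -1.46 ± 0.30 (adjusted p = 0.0267), and the 2 sets of libraries did not overlap. With a library left out, the Axin2 label calls held in 5 of 10 fits for Hpgd and 4 for Slco2a1 (limma adjusted p up to 0.156 and 0.166, both without Pdgfra library 1).

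Hpgd and Slco2a1 moved with endothelial markers, of which 3 of 12 were lower with the Axin2 label, where 1.14% of all genes were: Cdh5 at -1.75 ± 0.31 (limma adjusted p = 0.0152), Pecam1 at -1.81 ± 0.36 (0.0250) and Tek at -2.04 ± 0.41 (0.0250). The summed endothelial level was 14.44 to 15.69 with that label, 15.94 to 17.18 without it and 14.81 and 14.99 in Wnt2. No endothelial marker was at a lowest value in any library. Of 12 epithelial markers, 6 were lower with the label too. Slco2a1 correlated with the endothelial level at 0.90 and with that of the macrophage list at 0.91, and Hpgd with the endothelial level at 0.80. The part of those cells was not tested. Abcc4, which exports prostaglandins, stood at 2.65 and the lowest value in Axin2 and at 5.67 to 10.73 elsewhere.

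Of 3 other prostanoid receptors, 1 passed with the Pdgfra label, where 6.48% of all genes did, 2.93% as lower. Ptgdr2, a prostaglandin D receptor, was lower, with a difference of -5.10 ± 1.40 (limma adjusted p = 0.0438). It stood at 8.14 and 10.28 in Axin2 and 6.55 in Negative library 0, and it was at the lowest value in 3 of the 4 libraries with the label and in Negative library 2, so the size of its difference depends on those values. That call held in 1 of 10 fits with a library left out. Of 8 other lipoxygenase, leukotriene and epoxide genes, Cysltr1, a leukotriene receptor, was lower with the Pdgfra label, where 2.93% of all genes were. Its difference was -5.53 ± 1.28 (adjusted p = 0.0179). It stood at 8.71 and 10.37 in Axin2, 7.30 and 6.33 in Negative and no higher than 3.62 elsewhere, and the call held in 7 of 10 fits. By value, both receptors were thus high in Axin2, where Ptgs2, Ptger4 and Alox12 were low, although Ptger4 passed no comparison with all libraries in the fit. Not all of the 10 genes were low there: Ptgir averaged 8.12 in Axin2, beside 4.08 to 8.30 in the other groups.

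**Figure D4:**
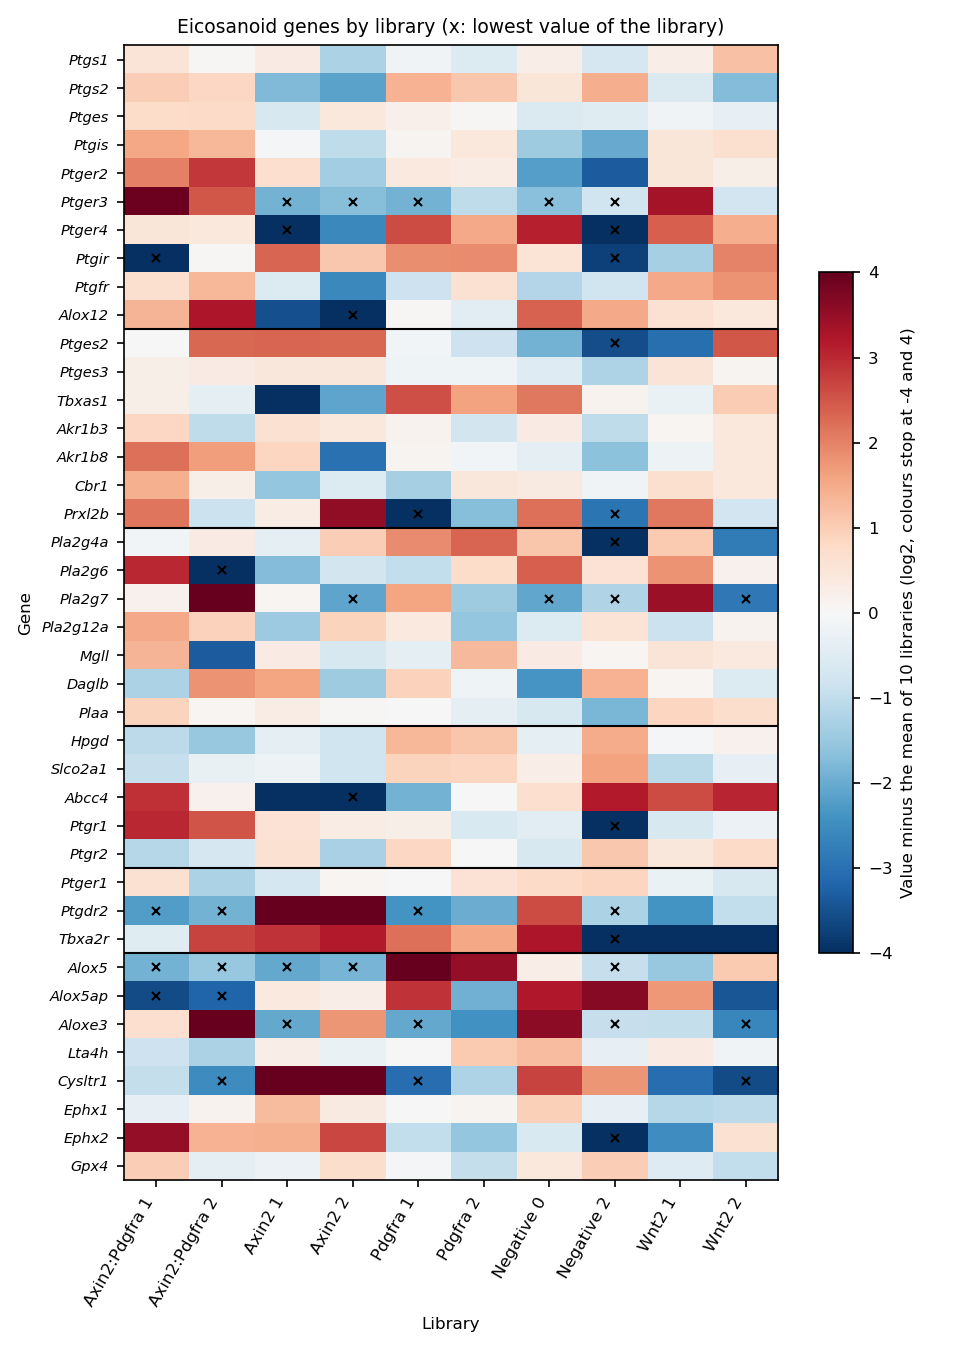
Log2 value of each gene (rows) in each library (columns) minus its mean over the 10 libraries. Crosses mark values at the lowest level of the library, and horizontal lines divide the 10 genes, other synthases, arachidonate release, transport and breakdown, other receptors, and lipoxygenase, leukotriene and epoxide genes. The Axin2 columns are blue for Ptgs2, Ptger4, Alox12, Tbxas1 and Abcc4 and red for Ptgdr2 and Cysltr1.

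Genes that receive the signal of these receptors were split. Of 32 genes of cyclic AMP and receptor coupling, 8 passed the F-test, where 8.2% of all genes did. With the Pdgfra label 7 passed in limma, 3 as higher, where 3.55% of all genes were, and 4 as lower, where 2.93% were. Among the phosphodiesterases, which degrade cyclic AMP, Pde4b was higher by 1.63 ± 0.30 (adjusted p = 0.00472) and Pde3a lower, at -2.44 ± 0.58 (adjusted p = 0.0202). Adcy8, a calcium-stimulated adenylyl cyclase, was lower, at -5.69 ± 0.53 (adjusted p = 4.3e-05), as was Rapgef4, a cyclic AMP-binding exchange factor, at -3.97 ± 0.77 (adjusted p = 0.00612). Adcy8 stood at 14.27 and 14.80 in Axin2 and 14.45 and 12.21 in Negative, against 7.45 to 9.34 in the other 6 libraries. Pericyte and smooth muscle markers had the same direction, with 8 of 12 lower with the Pdgfra label, where 2.93% of all genes were, and a summed level of 14.80 to 15.56 with it and 16.21 to 18.66 without it. Their part in these differences was not tested. With the Axin2 label Adcy2 was higher by 1.42 ± 0.33 (adjusted p = 0.0470), and in Wnt2 Adcy8 was lower than the mean of the other groups, at -2.48 ± 0.59 (adjusted p = 0.0432). With a library left out these calls held in 1 and 3 of 10 fits, that of Pde3a in 5, and those of Pde4b, Rapgef4 and Adcy8 with the Pdgfra label in all 10.

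Some reads may be shared with neighbours. In the GENCODE M21 annotation, genes on the opposite strand overlap Ptgis (1110018N20Rik), Ptger2 (Gm17173) and Ptger4 (Ttc33), and strand use in the authors' counting is not given in the sources used here. 1110018N20Rik was at the lowest value in 5 libraries and Gm17173 in 4, both Negative libraries among them, and neither exceeded 8.13. Ttc33 stood at 7.16 to 10.43, and in Axin2 library 1 and Negative library 2, where Ptger4 was at the lowest value, it stood at 8.47 and 10.31.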

How the data were processed

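Sorted cells of adult mouse lung mesenchyme were profiled by RNA-seq in 10 libraries. STAR, limma and the build mm9 are named in the submitters' processing notes, while versions, annotation, counting and normalization were not given in the sources used here. Each deposited table gives 1 log2 value per gene, a scale inferred from the values. All share the highest value of 19.25 and medians of 9.10 to 9.11, as quantile normalization leaves them. Without counts the depth is unknown and counting error could not be computed.

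Genes that reached 6 (log2) in 2 or more libraries were tested. limma 3.58.1 in R 4.3.3 fitted a mean per group to all 10 libraries with no covariate and 5 residual degrees of freedom (lmFit, eBayes with trend and robust, two-sided). Benjamini-Hochberg adjustment ran over all genes tested within a comparison, at a threshold of 0.05. The labels' comparisons set Axin2:Pdgfra and Pdgfra against Axin2 and Negative, and Axin2:Pdgfra and Axin2 against Pdgfra and Negative. Symbols matched 14720 of 14854 identifiers. Summed levels are the log2 of summed linear values of a list.

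The 10 genes and the lists were chosen with earlier results of these data known. All 10 genes are named; of other lists, at most 4 genes per comparison past the threshold by smallest adjusted p, at most 3 defining markers per marker list, and the 3 closest genes to each of the 10, of which 1 is not reported here; others named for context were chosen after their values were seen. On data simulated for the Pdgfra label, 200 of 14177 genes were changed. Of those changed by 1, 2 and 4 log2 units, 1.49%, 20.9% and 48.5% were recovered. In the data themselves 918 genes passed that comparison, so the share recovered there may differ. Alternatives covered the filter, the variance prior, a common floor, centring, array weights, a replicate or sequencing index term, the groups fitted and each library left out.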

Additional observations from a re-analysis of the deposited data

How the results depend on the processing

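The F-test count of 5 of the 10 genes became 0 with a variance prior without trend and robust, and 3 without both libraries that have most genes at the lowest value, an alternative chosen after seeing the data. It ranged from 1 to 6 when each library was left out. The Pdgfra label count of 2 became 1 under each of those settings and 1 to 3 with a library left out. The pairwise count of 10 became 3 with that variance prior, 6 with only the groups compared in the fit, 6 without both libraries, and 3 to 11 with a library left out. The Axin2 label count of 0 ranged from 0 to 1, the Wnt2 count of 0 from 0 to 1, and the latter became 1 with array weights, from Ptgfr; the interaction count stayed at 0.

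Deviations from group means correlated at -0.0606 to 0.0279 over the 16 pairs of libraries that share a number. With 2 libraries per group the deviations within a group mirror each other, so these values cannot decide whether the numbers pair the samples. With a replicate block the F-test count was 3, and the Axin2 label calls over all genes were 558, against 232 without it.

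Signs turned only for differences that had not passed. With a library left out, Ptgir ranged from -1.46 to 0.92 with the Pdgfra label, -1.65 to 0.74 with the Axin2 label and -1.25 to 2.08 in Wnt2. Ptgs1 ranged from -0.089 to 0.71 with the Pdgfra label and -0.22 to 0.58 with the Axin2 label, Ptgfr from -0.24 to 0.77 with the Axin2 label, and Ptger3 from -0.43 to 3.63 in Wnt2. With the replicate block Ptgir was 1.23 with the Pdgfra label and 1.05 with the Axin2 label, and with the index term 0.089 with the Pdgfra label. The causes were not tested. Of 976 alternatives for single genes, 840 kept direction and call, 110 lost the call, 9 gained it and 17 turned sign. A stricter filter of 8 removed Ptger3. Depth is unknown, so what it limits cannot be given.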
